A study of Homo sapiens with 2 samples.

Results

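The ID proteins (ID1, ID2, ID3 and ID4) and the BMP signalling genes SMAD6, SMAD7, BMP2, BMP4, BMP7 and BAMBI were read from 2 one-color Agilent whole-genome arrays of Y79, a human retinoblastoma cell line cultured in suspension. The RNA on the first array came from siRNA-untreated cells and that on the second from cells collected 48 h after Ep-CAM siRNA (200 nM). Ep-CAM is an epithelial adhesion molecule, listed on the array under its older symbol TACSTD1. By the description of the culture, cells of both arrays had also been exposed to 5 µM 5′-azacytidine, which removes DNA methylation, an exposure that the sample labels do not mention. The reference received no siRNA by its label, while a legend of the study also names a nonsilencing siRNA as reference. With the untreated reference of the labels, an effect of the transfection and an effect of Ep-CAM silencing cannot be told apart. Each condition had 1 array and the arrays shared 1 slide, so no value has a replicate check, no test between conditions was made, and precision is limited by the number of arrays. The members were all transcript probes that carry 1 of these 10 gene names, which gave 12 probes for 10 of the 30982 distinct names on the arrays. ID2 and BMP7 had 2 probes each and the other 8 genes had 1 probe each.

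BMPs are secreted ligands that bind pairs of type I and type II serine/threonine kinase receptors. The receptors phosphorylate SMAD1, SMAD5 and SMAD9, which enter the nucleus with SMAD4 and switch on target genes, the ID genes among the best known. ID proteins have a helix-loop-helix domain but no basic region, so they pair with E proteins such as TCF3, TCF4 and TCF12 and keep them off DNA. SMAD6, SMAD7 and BAMBI are inhibitors that the pathway induces itself, and in the developing eye BMP4 and BMP7 take part in patterning of the retina and induction of the lens.

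At 48 h, none of the 10 probes measured on both arrays reached a log2 ratio of 1 in either direction. The other 2 probes were too dim on both arrays for a ratio. The ratios nearest to it had opposite signs within the ID family. The signal of ID3 was 1.76-fold and that of ID4 1.81-fold the untreated signal, while 1 of the 2 ID2 probes was at 0.584 of it. BAMBI, a decoy receptor without kinase activity, was at 1.68-fold. ID4 and BAMBI had low signals, and without background subtraction their log2 ratios were 0.18 and 0.34, against 0.66 for ID3. The other 6 measured probes, of ID1, ID2, SMAD6, SMAD7, BMP4 and BMP7, had log2 ratios of at most 0.32 in size.

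The probes of ID3 and ID2 that lie in coding sequence are shown. The ID2 probe shown is the one with a log2 ratio of -0.32, and not the one at -0.78. The ID3 probe, at chr1:23630972-23631031 (hg17, minus strand), reads the second helix of the helix-loop-helix domain. The first ID2 probe, at chr2:8773240-8773628 (hg17, plus strand), covers 389 bases of genome with 60 bases of sequence and so spans an intron. It reads the last codons of ID2, with the stop codon in capitals.
ID3: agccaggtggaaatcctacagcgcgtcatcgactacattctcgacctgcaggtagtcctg
ID2: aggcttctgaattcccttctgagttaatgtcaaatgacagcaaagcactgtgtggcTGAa
The second ID2 probe lies 1251 bases further downstream, at chr2:8774880-8774939. Among the 5 probes of ID genes, the longest identical run shared by any of the 10 pairs was 7 bases.

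The 250 bases before the transcription start of each ID gene are shown to set the promoters of a family with unlike ratios side by side. They come from RefSeq (GRCh38.p14), from chr20:31605039-31605288 for ID1, chr2:8681806-8682055 for ID2, chr1:23559502-23559751 (minus strand) for ID3 and chr6:19837120-19837369 for ID4. Capitals mark TATAA on the gene's strand, and CAGAC (a SMAD-binding element) and ATTGG (a reversed CCAAT box) on either strand.
ID1: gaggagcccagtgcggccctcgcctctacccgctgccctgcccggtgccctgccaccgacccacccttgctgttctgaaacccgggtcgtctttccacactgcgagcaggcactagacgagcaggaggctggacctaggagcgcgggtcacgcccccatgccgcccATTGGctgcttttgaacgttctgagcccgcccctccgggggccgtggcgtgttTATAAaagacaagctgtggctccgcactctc
ID2: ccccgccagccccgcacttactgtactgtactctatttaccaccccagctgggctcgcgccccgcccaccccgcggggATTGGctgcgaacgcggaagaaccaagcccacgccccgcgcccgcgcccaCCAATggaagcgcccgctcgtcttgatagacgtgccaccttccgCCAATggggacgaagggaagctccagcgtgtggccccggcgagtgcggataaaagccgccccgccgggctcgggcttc
ID3: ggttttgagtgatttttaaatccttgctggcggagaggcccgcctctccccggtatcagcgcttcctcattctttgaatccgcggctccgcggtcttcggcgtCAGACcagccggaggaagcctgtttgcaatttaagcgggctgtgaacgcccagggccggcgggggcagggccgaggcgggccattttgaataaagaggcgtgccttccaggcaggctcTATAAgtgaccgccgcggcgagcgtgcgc
ID4: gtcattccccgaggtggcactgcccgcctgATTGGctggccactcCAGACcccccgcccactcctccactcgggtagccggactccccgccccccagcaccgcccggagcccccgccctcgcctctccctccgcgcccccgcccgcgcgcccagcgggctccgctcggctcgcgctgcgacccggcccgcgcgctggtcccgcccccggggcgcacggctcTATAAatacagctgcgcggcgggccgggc
TATAA lay 31 bases before the start of ID1 and 29 bases before those of ID3 and ID4, and was not in the ID2 window. It was found in 14.3% of 27305 promoter windows of the same length. CAGAC was in the ID3 and ID4 windows, 1 time each, against 37.8% of all windows. ATTGG was found 3 times for ID2 and 1 time each for ID1 and ID4, against 33.0% of all windows. GGCGCC, another SMAD-binding element, was in none of the 4 windows and in 16.1% of all windows. Among other members, the BAMBI window held CAGAC 2 times and GGCGCC 3 times, and that of SMAD6 held neither. SMAD7 and BMP4, with several windows each, had CAGAC in some of them, and 1 BMP4 window had GGCGCC. The marked motifs did not overlap each other in the 4 windows shown, and a match is a description of letters and not of binding.

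Each array was divided by its median over transcript spots, 48.9 for the untreated and 50.1 for the siRNA-treated array, and the log2 ratio is siRNA-treated over untreated. A probe was taken as measured where the scanner software marked its spot as well above background on both arrays. The lowest such signal was 14.9 without siRNA and 17.5 with it, in arbitrary units of brightness. The spot error given with each log2 ratio was computed from the error estimate in the files and covers at most the reading of the spot. For ID3 that estimate was 86.5 at a signal of 864 and 156 at 1562, a like share of the signal. Each member probe was printed once, so the spot error is not a spread of repeat readings, and a multiple of it is not a test. A second measure, the SD of the log2 ratio over repeat spots of 1 probe, had a median of 0.14 over 179 probes. At low signals it was 0.13 for a PTPRC probe and 0.41 for a COL1A2 probe, so 0.14 need not hold for each member. Neither the spot error nor this SD includes differences between cultures. Of the 12 probes, 10 were measured on both arrays, covering 9 genes, and the probes of BMP2 and 1 of BMP7 were dim on both.

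The 4 ID genes differed in sign and size. ID3 is a dominant-negative partner of E proteins known from lymphocytes and neural progenitors. Its signal was 864 without and 1562 with siRNA, which gave a log2 ratio of 0.82 with a spot error of 0.20. This difference was 4.01 times its spot error. ID4, the family member best known from neural stem cells and glia, gave 19.1 without and 35.4 with siRNA, a log2 ratio of 0.86 with a spot error of 0.37. Its untreated signal lay just above the lowest signal that counted as measured. Both genes were higher in the siRNA-treated cells, and the error of ID4 was the widest of the measured probes.

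ID2, which also binds the retinoblastoma protein, was read by 2 probes. The second probe had signals of 238 and 142, a log2 ratio of -0.78 with a spot error of 0.21, which was 3.70 times that error. The first, intron-spanning probe had 69.8 and 57.2, a log2 ratio of -0.32 with a spot error of 0.25. Both were lower in siRNA-treated cells, and they differed from each other by 0.45 with a combined spot error of 0.32. ID1, the classic immediate target of BMP receptors, had signals of 52.5 and 49.6, a log2 ratio of -0.12 with a spot error of 0.26, so its difference was smaller than its error.

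**Figure D1:**
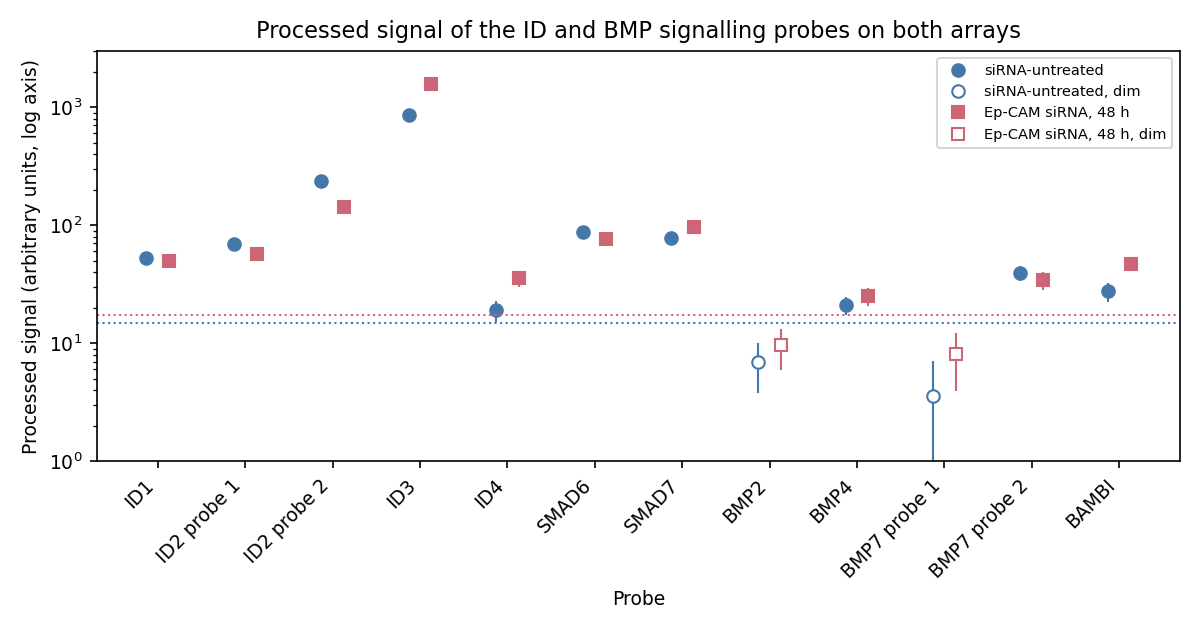
Processed signal of each of the 12 probes (log axis, arbitrary units) in siRNA-untreated (circles) and Ep-CAM siRNA-treated Y79 cells (squares), 1 array each. Bars are the spot errors of the scanner software (that of BMP7 probe 1 runs below the axis), dotted lines the lowest signal well above background on each array, and open symbols dim probes. Only values of the same probe can be compared, and among the 10 measured probes the pairs of ID3, ID4, BAMBI and ID2 probe 2 stand furthest apart. The dim pair of BMP7 probe 1 is wider apart still, at signals too low for a ratio.

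The inhibitors of the pathway that BMP itself induces were small in difference except BAMBI. BAMBI gave 27.5 without and 47.3 with siRNA, a log2 ratio of 0.75 with a spot error of 0.33. SMAD7, which blocks both BMP and TGF-beta receptors, had 78.7 and 95.9, a log2 ratio of 0.25 with a spot error of 0.23. SMAD6, which blocks mainly the BMP branch, had 88.3 and 76.1, a log2 ratio of -0.25 with a spot error of 0.22. The 2 inhibitory SMADs thus had ratios of opposite sign, each 1.09 to 1.12 times its spot error. The SMAD6 probe, like the first ID2 probe, crosses splice junctions, with 60 bases of sequence over 64558 bases of chromosome 15.

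Among the ligands, BMP4 had signals of 21.1 and 24.9, a log2 ratio of 0.20 with a spot error of 0.36. BMP7 was measured by its more upstream probe, at 39.3 without and 34.3 with siRNA, a log2 ratio of -0.23 with a spot error of 0.32. Neither difference exceeded its spot error. The other BMP7 probe, 57765 bases away on chromosome 20, had signals of 3.58 and 8.08, both dim, and no ratio is given for it. BMP2 had signals of 6.92 and 9.64, also dim on both arrays, and whether its level differed was not detectable.

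**Figure D2:**
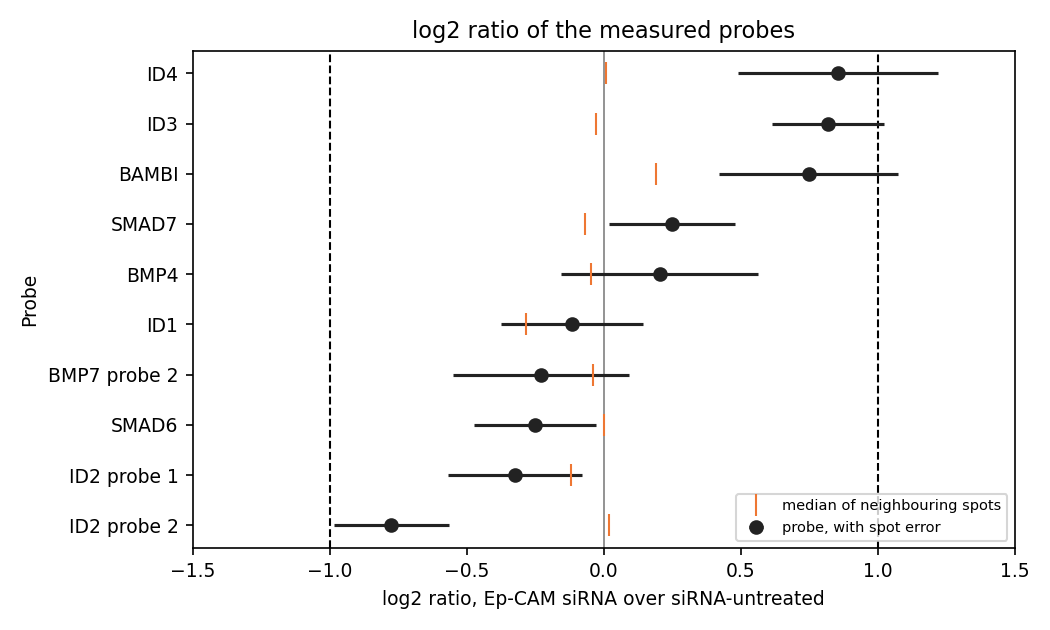
log2 ratio of siRNA-treated over untreated signal for the 10 measured probes, with the spot error as bars and the median of neighbouring spots as an upright mark. Dashed lines stand at -1 and 1. ID4, ID3 and BAMBI lie between 0.75 and 0.86, ID2 probe 2 at -0.78, and the other 6 within 0.32 of 0.

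Set against all probes, 0 of the 10 measured member probes reached a log2 ratio of 1, and 0 reached -1. Among all 29345 probes that were measured on 1 or both arrays, 1.27% were at or above 1 and 0.927% at or below -1. Many of these lay in the corner of the array with the highest row and column numbers. Leaving that corner out took the counts from 372 and 272 to 106 and 164. Of the measured members only ID1 lay there, so shares over all probes, also those at milder cutoffs, include a part of the array with few members. The processing text of the series gives milder cutoffs, a ratio above 1.5 or below 0.55. At these, 3 member probes passed above (ID3, ID4 and BAMBI), against 4.00% of all probes, and 0 passed below, against 1.70% of all probes. The ID2 probe at 0.584 lay just outside the lower cutoff. The members had been chosen with earlier results of these arrays known. No inference about the list is drawn from these counts or from the comparisons with all measured probes that follow.

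The median log2 ratio of the 10 measured member probes was 0.04, with 5 above and 5 below 0, beside a median of -0.03 over all 26992 measured probes. The median size of the ratio was 0.29 for the members and 0.15 for all measured probes. Probes of like brightness were compared in 20 bins of mean signal. The ratios of ID3, ID4, BAMBI and ID2 probe 2 lay outside the central 95% of their bins and those of the other 6 inside. For ID3 that range was -0.92 to 0.60, for ID4 -0.70 to 0.68, for BAMBI -0.65 to 0.68 and for ID2 probe 2 -0.68 to 0.53. Of all measured probes, 1.32% had a ratio at least as high as ID3 and 2.22% one at least as low as ID2 probe 2.

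**Figure D3:**
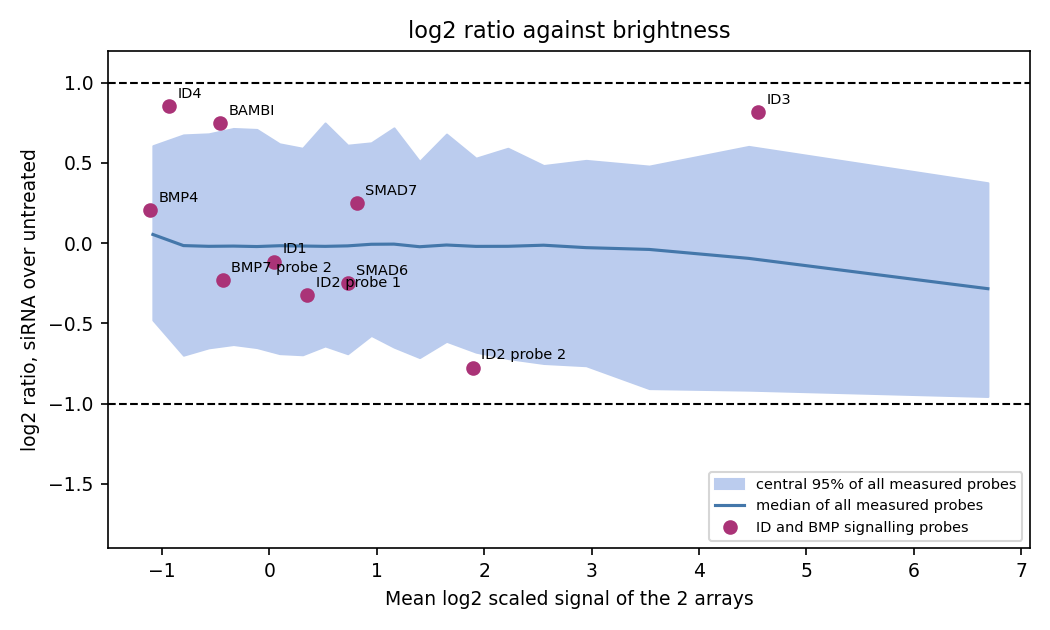
log2 ratio (siRNA-treated over untreated) against mean log2 scaled signal of the 2 arrays. The band holds the central 95% of all measured probes in each of 20 brightness bins, the line is their median, and the points are the 10 measured member probes. ID3, ID4 and BAMBI stand above the band and ID2 probe 2 just below it.

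The place of the spots on the array was checked beside these values. The spots of ID3 and ID4 were 2 rows and 3 columns apart. Around ID3, 155 measured spots within 10 rows and 5 columns had a median log2 ratio of -0.03, and the only one as high as ID3 was ID4. Around ID4, 150 such spots had a median of 0.01 and 1 was as high. Around ID2 probe 2, 147 spots had a median of 0.02, and 4 were as low. The 137 spots around the first ID2 probe had a median of -0.12, and relative to them its log2 ratio was -0.21 in place of -0.32. The spots around BAMBI were themselves higher after siRNA, with a median of 0.19 over 97 spots, and 7 were as high as BAMBI. Relative to these spots BAMBI was at 0.56, below the log2 of 1.5, which is 0.58. The ID1 and BMP2 spots lay in the corner of the array with the highest row and column numbers, set apart because many spots had large ratios there. In that corner log2 ratios had an SD of 0.51, against 0.29 elsewhere. The 125 spots around ID1 had a median of -0.28, and relative to them its log2 ratio was 0.17 in place of -0.12.

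The ratios of ID4 and BAMBI depended on how background was treated, while that of ID3 was low only with normexp fitted to all spots. ID3 was at 0.10 with a normexp background model in which all measured probes had a median of -0.20, and at 0.71 when that model was fitted after leaving out the 1 spot that was darker than the background beside it. ID4 was at 0.18, BAMBI at 0.34 and ID3 at 0.66 in the values deposited for the whole series, from which no background was subtracted. The 4 probes of ID3, ID4, BAMBI and ID2 kept their direction under each of 12 alternatives, of which 8 can move a measured ratio, as the plot of alternatives shows. Of these 8, the scalings to the 75th percentile, to probes measured on both arrays and with none shifted all ratios by a common small amount.

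**Figure D4:**
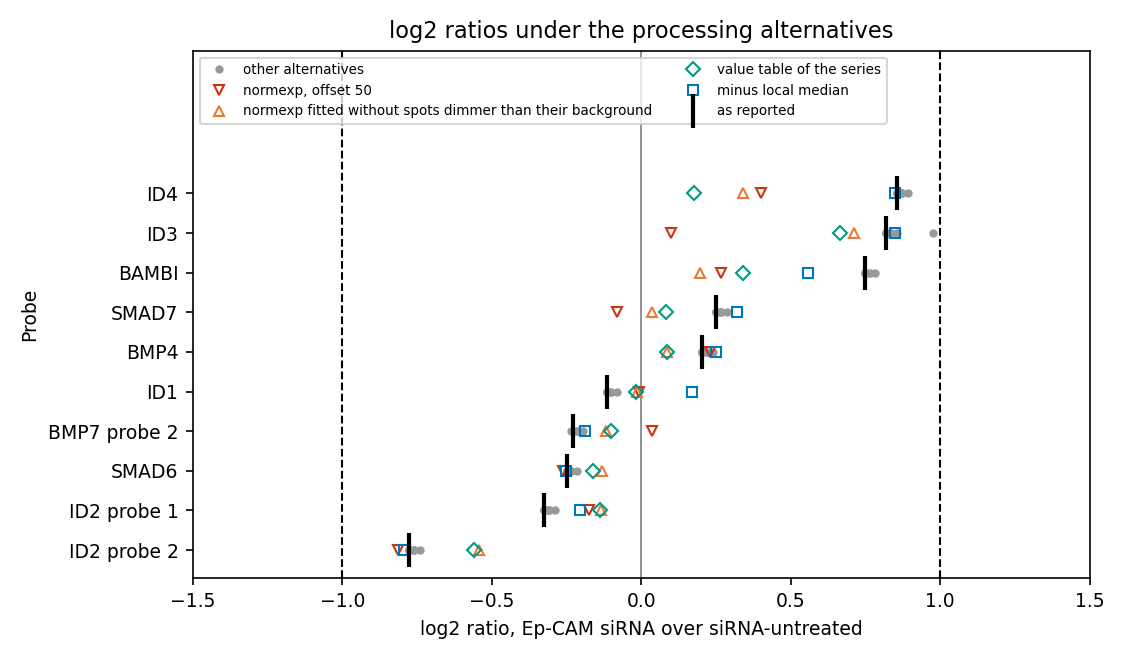
log2 ratio of each measured probe as reported (black marks) and under the processing alternatives, with the alternatives that change the background or use neighbouring spots drawn as open symbols. Dashed lines stand at -1 and 1, which none of these 10 probes reached. ID3 spans 0.10 to 0.98, ID4 0.18 to 0.89 and BAMBI 0.20 to 0.78, while ID2 probe 2 spans -0.81 to -0.54.

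The rest of the pathway was described by 8 lists of 78 genes, of which 77 were on the arrays with 115 probes. Of the 84 probes tested, 0 were at a log2 ratio of 1 or more and 1 was at -1 or less, and the median over the 77 measured on both arrays was 0.0027. The 1 lower probe was of BMP8A, a ligand close in sequence to BMP8B, with signals of 133 without and 62.9 with siRNA, which is a log2 ratio of -1.11. It lay in the corner of the array, and the other BMP8A probes both had -0.09. The share at or below -1 was 1.19%, beside 0.927% of all probes. At the milder cutoffs 2 probes, of RUNX2 and TOB2, were above 1.5, which is 2.38% beside 4.00% of all probes, and both genes are named here after their values were seen. RUNX2, an osteoblast transcription factor, had 27.1 and 46.7 at 1 probe and 71.3 and 73.1 at another. TOB2, a repressor that binds SMADs, was at least 1.65-fold higher at a probe in that corner, dim in untreated cells, and had 0.16 at its other probe.

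Of the 13 measured probes of other BMP ligands, the median log2 ratio was -0.09. BMP5 had signals of 221 and 220. The receptors and co-receptors had a median of -0.12 over 10 measured probes. ACVR2B, a type II receptor, had -0.38 at its brighter probe and -0.24 at the other, and ENG, a co-receptor of endothelium, had -0.02. BMPR2, the main type II receptor of BMPs, was dim on both arrays at both its probes. The SMADs that carry the signal were SMAD9 with -0.30, SMAD1 with -0.08 and SMAD5 with 0.24, and SMAD4 was dim. None of the measured receptor and SMAD probes reached a log2 ratio of 1 in size.

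The secreted antagonists, which bind BMPs outside the cell, had a median of 0.04 over 14 measured probes. Among them FSTL1 had -0.04 and CHRD, which encodes chordin, had -0.11 and 0.11 at its 2 probes. The intracellular brakes had a median of 0.13 over 8 measured probes, with 0.11 and 0.16 for PPM1A, a SMAD phosphatase, and 0.17 and -0.16 for TOB1. Of other BMP target genes, HAMP, the iron hormone hepcidin, had -0.03 and ATOH8 had -0.08.

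The E proteins that ID proteins hold back each had at least 1 measured probe. TCF12 had signals of 999 and 730, a log2 ratio of -0.49, while its other probes were dim on both arrays. TCF4 had 502 and 420, a ratio of -0.29. TCF3 had 0.05 and 0.03 at its 2 probes. In the sister branch of TGF-beta and activin the median was 0.04 over 20 measured probes. SMAD2, which carries the signal of that branch, had -0.39 ± 0.09 (SD over 10 spots of 1 probe), with -0.53 and 0.04 at its other measured probes. The first of these probes is in the brightest of the 20 bins, in which the median over all probes was itself -0.28. TCF12, like the brighter ACVR2B probe, is in the next bin, with a median of -0.09. ACVR1B, an activin type I receptor, had 0.01 and 0.22.

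**Figure D5:**
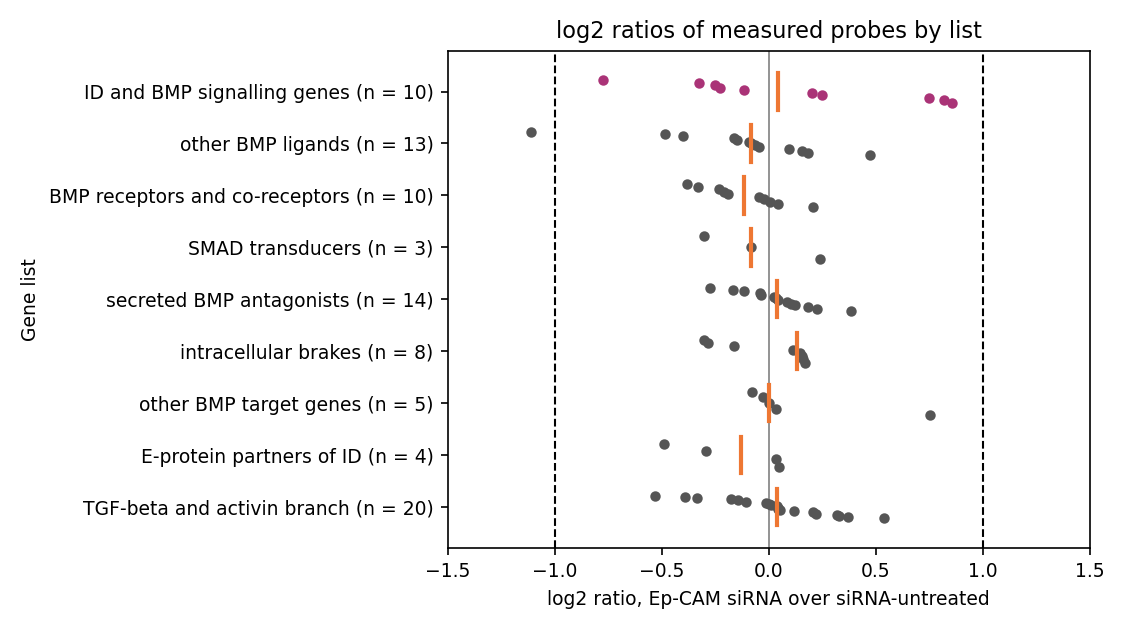
log2 ratio (siRNA-treated over untreated) of each measured probe by gene list, with the median of each list as an upright bar and the number of probes in brackets. Dashed lines stand at -1 and 1. The list medians lie between -0.13 and 0.13, and the only point past a dashed line is the BMP8A probe in the corner of the array.

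The cells and the target were checked against their own probes. The single TACSTD1 probe had signals of 15.6 and 12.0, dim on both arrays, so the silencing itself was not checked here. Of 7 retinoblastoma and photoreceptor markers, CRX, OTX2 and ARR3 were measured, with log2 ratios of -0.37, -0.47 (a spot in the corner) and -0.21, and their summed signal was 239 without and 193 with siRNA. NRL, RCVRN and RXRG were dim on both arrays and THRB, dim after siRNA, was at least 1.53-fold lower. Summed signals of the measured markers were 340 and 360 for Müller glia, 1272 and 1314 for epithelium, and 471 and 401 for fibroblasts, with 0 probes past a log2 ratio of 1 in either direction. Among blood and endothelial markers HBB, a globin gene, had a log2 ratio of 1.86, between 1.63 and 2.01 at each of the 8 spots used, while CD34 and PTPRC had 0.07 and 0.02 and PECAM1 was dim. The part of these markers in the ID and BMP values was not tested. In RNA from whole cultures, fewer cells of a type and less RNA per cell cannot be told apart.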

How the data were processed

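Intensities were measured on 2 one-color (Cy3) Agilent arrays, 1 for each condition, grouped by the sample labels. The deposited files hold spot intensity values that the authors made with Agilent Feature Extraction (version 9.5.3.1 in the file headers, 9.1 in the labels), with background subtracted and no scaling between arrays. They also hold an error for each spot, flags and probe positions on hg17. The deposited values of the whole series were the raw median intensity of each spot, equal within 1 for 100% of the 40736 probes printed once, with column medians of 120 and 123 for untreated and siRNA-treated cells. Their scale is linear, with no centring.

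After removal of control spots, the deposited intensities were scaled to the 50th percentile of the transcript spots of their array, floored at 0.01 and converted to log2. Outlier spots (117 and 131) were left out on both arrays, and spots of 1 probe were averaged. A probe was measured on an array if 50% or more of its spots were well above background. A probe measured on only 1 array gave a bound, with the dim side raised to the lowest signal well above background. The percentage of spots above background was 70.4 and 68.0. The code that makes the calls was run on simulated data, with noise of SD 0.14 and planted changes well past the cutoff. That run checks the code only and cannot tell how often calls in these data are wrong. Calculations used Python 3.11.15, pandas 2.3.3 and limma 3.58.1 in R 4.3.3.

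Members and lists were chosen with earlier results of these data known. Each member was named with each probe, and from each list the genes with a called probe and the 2 with the brightest measured probe. All 12 accessions of member probes carried the same symbol in RefSeq. Alternatives were other scalings (75th percentile, quantile, none, probes measured on both arrays), normexp with an offset of 50, the values of the whole series, other filters and thresholds, a floor of 5, leaving out the corner of the array, and subtraction of the local median. Normexp without the spot darker than its local background was chosen after the data were seen.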

Additional observations from a re-analysis of the deposited data

How the results depend on the processing

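Of 12 alternatives, 4 (filters, floor and corner) cannot move the ratio of a measured member probe. Of the 80 values under the other 8, 77 kept their sign, 60 moved by less than the technical SD of 0.14 and 0 reached a log2 ratio of 1 in size. Among these 8, the 75th percentile, probes measured on both arrays and no scaling shifted all ratios by a common small amount. Their values could not change sign or move by 0.14, so the counts of 77 and 60 are in part fixed in advance. The sign changed for BMP7 (0.04) and SMAD7 (-0.08) with normexp and for ID1 (0.17) with the local median subtracted. Relative to the median of all measured probes, which normexp moved to -0.20, SMAD7 kept its sign under each of the 12 alternatives and ID1 under 7 of 11. On that scale BMP7 and the first ID2 probe kept theirs under 11 of 12 each, and that ID2 probe reached 0.03. The member median of 0.04 was 0.20 without the corner, where the ID1 probe is left out by construction, and 0.21 with the local median subtracted. The count of member probes at 1 or more was 1 without a filter on dim probes, which lets in the dim BMP7 probe, and 3 with ratios above 1.5. The 1 lower pathway probe became 0 with the values of the whole series, without the corner, with the local median and with normexp fitted without the spot darker than its local background, and 3 without a filter. The higher pathway probes were 2 without a filter and 2 with ratios above 1.5. With normexp on all spots, 45 of all probes were called higher and 1060 lower, against 372 and 272 as reported. Dim spots limit what could be seen for BMP2, 1 BMP7 probe, BMPR2 and SMAD4. No replicate could be left out, with 1 array per condition. No paired analysis was possible because each condition has 1 array.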
